A study of Mus musculus with 4 samples.

Results

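A set of genes of the B cell surface and its antigen receptor was followed in MPC11, a mouse plasmacytoma line, with and without depletion of Ell2. Its 9 members were taken by symbol (Ms4a1, Cd24a, Cd22, Cd79a, Cd79b, Cd72, Cd37, Cd53 and Vpreb3), and all 9 were among the 22722 genes of each count table. The choice did not use measured values as a rule, but earlier results of these data were known when it was made. The control cells (shGFP, 2 libraries) carried the lentiviral vector pLKO.1-shGFP, whose hairpin targets a sequence that mouse cells lack. The depleted cells (Ell2-KD, 2 libraries) carried pLKO.1-shELL2-1C7, a single hairpin against Ell2, which encodes an elongation factor of RNA polymerase II. With 1 hairpin, its effects on other transcripts and those of Ell2 loss cannot be told apart. All 4 cultures therefore had been exposed to lentivirus and polybrene, with the virus taken off after 18 h, 72 h of puromycin selection and 72 h of expansion. The labels call the libraries of a group biological replicates without saying that the cells were transduced separately, so the p-values reflect only variation among the 4 libraries, some of which may be technical. The series was set up to examine splicing, whereas a count per gene gives only the total of its transcripts.

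The B cell antigen receptor is a membrane immunoglobulin held by a heterodimer of CD79a and CD79b, whose cytoplasmic tails pass the signal to tyrosine kinases. CD22 and CD72 are inhibitory receptors that dampen that signal, CD20 (encoded by Ms4a1) is a tetra-spanning membrane protein of mature B cells, CD24 is a small glycosylated surface protein, CD37 and CD53 are leukocyte tetraspanins, and Vpreb3 is an intracellular protein of precursor B cells related to the surrogate light chain. When a B cell becomes an antibody-secreting plasma cell, much of this surface programme is shut down while secretory genes are raised.

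Promoter windows show the regulatory sequence next to members at opposite ends of the range of levels. Of the 9 members, 6 matched an entry of the RefSeq promoter table (GRCm38.p6), and Ms4a1, Cd24a and Cd79b did not. Each window runs from 250 bases before the annotated start to 50 after it. The 3 printed here belong to Vpreb3, which had the largest change of the members tested, Cd79a, which was nearly without reads, and Cd53, which was abundant. The windows lie at chr10:75948050-75948349 on the plus strand, chr7:24897247-24897546 on the plus strand and chr3:106790100-106790399 on the minus strand. Capitals mark the octamer ATTTGCAT, the site of Oct factors in B cell promoters, and AGGAAG, 1 form of the Ets site. Each was searched on both strands.
Vpreb3: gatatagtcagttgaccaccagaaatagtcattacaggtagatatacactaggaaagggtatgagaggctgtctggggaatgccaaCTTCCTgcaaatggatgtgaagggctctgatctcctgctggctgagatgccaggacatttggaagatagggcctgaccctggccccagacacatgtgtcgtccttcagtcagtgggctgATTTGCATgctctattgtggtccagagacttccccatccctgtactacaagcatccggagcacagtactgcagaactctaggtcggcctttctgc
Cd79a: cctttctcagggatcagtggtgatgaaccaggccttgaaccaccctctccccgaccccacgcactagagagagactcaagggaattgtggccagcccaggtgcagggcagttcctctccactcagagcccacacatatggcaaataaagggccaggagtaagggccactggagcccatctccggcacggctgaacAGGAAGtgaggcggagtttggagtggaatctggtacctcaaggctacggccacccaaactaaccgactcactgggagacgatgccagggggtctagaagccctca
Cd53: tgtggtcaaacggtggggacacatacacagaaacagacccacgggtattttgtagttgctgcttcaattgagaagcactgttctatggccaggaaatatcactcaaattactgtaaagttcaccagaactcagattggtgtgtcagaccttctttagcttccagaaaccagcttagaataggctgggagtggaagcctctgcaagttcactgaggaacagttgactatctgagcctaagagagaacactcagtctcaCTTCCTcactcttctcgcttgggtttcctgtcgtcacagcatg
The Vpreb3 window held 1 octamer, with its first base at position -45 (the annotated start is 0), and none of the other 5 windows held one. Of 32851 RefSeq windows of this length, 1.74% (570) contain an octamer. AGGAAG was found in 5 of the 6 windows, all but that of Cd22, and it occurs in 35.4% of all windows. Other forms of the Ets site were not searched, so no window, that of Cd22 included, is shown to lack one. In Vpreb3 AGGAAG began at -164, apart from the octamer, in Cd79a at -55 and in Cd53 at 7. For early B cell factor only 1 exact palindromic form of its site was searched. That form occurred in the Cd22 window alone of the 6 (first base at -49) and in 0.904% of all windows. Imperfect forms of the site were not searched, so no window, that of Cd79a included, is shown to lack a site of this factor. TATAAA, the TATA box, was in none of the 6, against 13.6% of all windows, and the E-box CAGGTG was in those of Cd22, Cd79a and Cd37, against 20.2%. These matches describe letters in a window and say nothing of binding.

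Depth was 8323915 counts for shGFP replicate 1, 5088789 for shGFP replicate 2, 13914488 for Ell2-KD replicate 1 and 3496471 for Ell2-KD replicate 2. Ell2 itself stood at 938 and 996 CPM (counts relative to the library total, scaled by TMM, a trimmed-mean normalisation) under shGFP and at 87.8 and 115 CPM under Ell2-KD, so the libraries followed their labels. Exons of Ell2 overlap an antisense transcript and Gm23127, a small nucleolar RNA on the same strand. The count of Ell2 can include reads of either. Markers of plasma cells were present in every library. Syndecan-1 (Sdc1) had 1187 to 6575 counts and the joining chain (Igj) 28894 to 130045, over libraries of unequal depth. On the normalised scale Sdc1 stood at 784 and 648 CPM under shGFP and at 478 and 347 CPM under Ell2-KD (edgeR adjusted p = 0.579). The 10 plasma cell markers counted include Ell2 itself, the target of the hairpin, so its fall adds to each tally here by design. All 10 had a negative log2 change (median -0.59), where 5525 of the 11027 genes tested were negative. The targeted Ell2 alone passed the test. Both Ell2-KD libraries lay below both shGFP libraries for 8 of the 10, against 18.5% of all genes, and 5 had an unadjusted p under 0.05, against 359 of all genes in that direction. Tnfrsf17, the survival receptor BCMA, had 159 and 126 reads under shGFP and 18 and 1 under Ell2-KD, or 1.28 and 0.29 CPM in the latter (edgeR adjusted p = 0.183). Tnfrsf13b, the receptor TACI, stood at 159 and 112 CPM against 59.7 and 46.8 CPM (edgeR adjusted p = 0.429). Relative to the raw library total, Xbp1 stood at 4260 and 2202 CPM under shGFP and at 4023 and 2199 CPM under Ell2-KD. Slamf7 stood at 127 and 156 against 135 and 102 CPM, and Irf4 at 1885 and 1607 against 1636 and 1238 CPM. The groups of each overlapped on that scale, and those of Prdm1 (387 and 279 against 276 and 232 CPM) did not. Lower values of most, but not all, plasma cell markers thus stood beside the higher values of Ms4a1, Cd24a and Vpreb3 given below. Their part in those values was not tested. Markers of other cell types were low apart from Epcam. T and NK cell genes (17) summed to 33.5 and 30.7 CPM in shGFP and 24.1 and 24.0 in Ell2-KD, with Trat1 at 0 throughout. Myeloid genes (15) summed to 14.8 and 12.0 against 9.34 and 39.5 CPM, with S100a8 at 0. Genes of the erythroid and megakaryocyte lineages (10) came to 5.41 and 3.54 against 14.4 and 22.0 CPM, nearly all of it from Itga2b, with Hbb-b1, Hbb-b2 and Pf4 at 0. Fibroblast and epithelial genes (13) summed to 496 and 635 against 457 and 594 CPM with Epcam and to 4.08 and 11.4 against 6.76 and 15.4 CPM without it, with Krt14 at 0. The part of such cells in the results below was not tested.

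The 2 chains of the receptor heterodimer stood far apart. Cd79b had 8497 and 5215 reads under shGFP and 15256 and 3085 under Ell2-KD. Cd79a had 0 and 0 reads under shGFP and 2 and 1 under Ell2-KD. The exons of both genes are of nearly equal length in the GENCODE M21 annotation, 1431 bases for Cd79b and 1457 for Cd79a. Per kilobase of exon, Cd79b stood at 713 and 716 CPM under shGFP. A limit of 3 counts per library was taken for a count of 0, or 0.247 and 0.405 CPM per kilobase of Cd79a. Cd79b stood 2884-fold above that limit in shGFP replicate 1 and 1770-fold above it in replicate 2. The exact two-sided 95% upper bound of a count of 0 was 3.69 reads, which allows a smaller fold. Cd79a thus was not detectable under shGFP at this depth. In the depleted cells Cd79a made up 0.0131% of the reads of both chains in replicate 1 (exact Clopper-Pearson 95% interval 0.00159 to 0.0473%) and 0.0324% in replicate 2 (0.00082 to 0.180%). Those intervals, like the limits from 3 counts, cover counting error only. The share under shGFP was 0, with exact 95% upper bounds of 0.0434% and 0.0707%, so the intervals of all 4 libraries overlap. An exact two-sided permutation test gave p = 0.333, the smallest that 2 libraries against 2 allow. A stretch of 298 bases of Cd79a is 98.7% identical to the transcript of another gene, Gm32220, so reads from that stretch could have been lost or shared in counting.

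Cd79b was the most abundant member per length and did not differ between groups beyond its spread. It stood at 1013 and 1035 CPM under shGFP and at 1082 and 903 CPM under Ell2-KD. The depleted libraries lay on either side of both controls. The log2 change was -0.04 ± 0.19 (SE; edgeR adjusted p = 0.999), with a 95% interval from -0.47 to 0.38.

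The inhibitory receptors Cd22 and Cd72 had at most 4 reads in any library. Cd22, a sialic acid-binding lectin that recruits the phosphatase SHP-1, had 2 and 3 reads under shGFP and 4 and 3 under Ell2-KD. The exact Poisson 95% intervals of these counts ran from 0.242 to 7.22 for the lowest and from 1.09 to 10.2 for the highest, and they overlapped across all 4 libraries. Cd72, a C-type lectin-like receptor, had 1 read in Ell2-KD replicate 1 and 0 in the other 3 libraries. Neither gene nor Cd79a had enough reads to be tested in the main fit, and no fold change is given for them. With 3 counts as the limit, a count of 0 allowed 0.360 CPM in shGFP replicate 1, 0.590 in shGFP replicate 2 and 0.858 in Ell2-KD replicate 2, the shallowest library. In GENCODE M21, exons of Cd72 overlap Tesk1 on the opposite strand and exons of Cd22 overlap an antisense transcript. Reads there may have been assigned to either gene or left out. The longest stretch that Cd72 shares with Tesk1 was 1425 bases, against 2583 for the longest Cd72 transcript. Tesk1 had 91 and 65 reads under shGFP and 41 and 7 under Ell2-KD. The strand setting of the counting is not given in the sources used here.

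**Figure D1:**
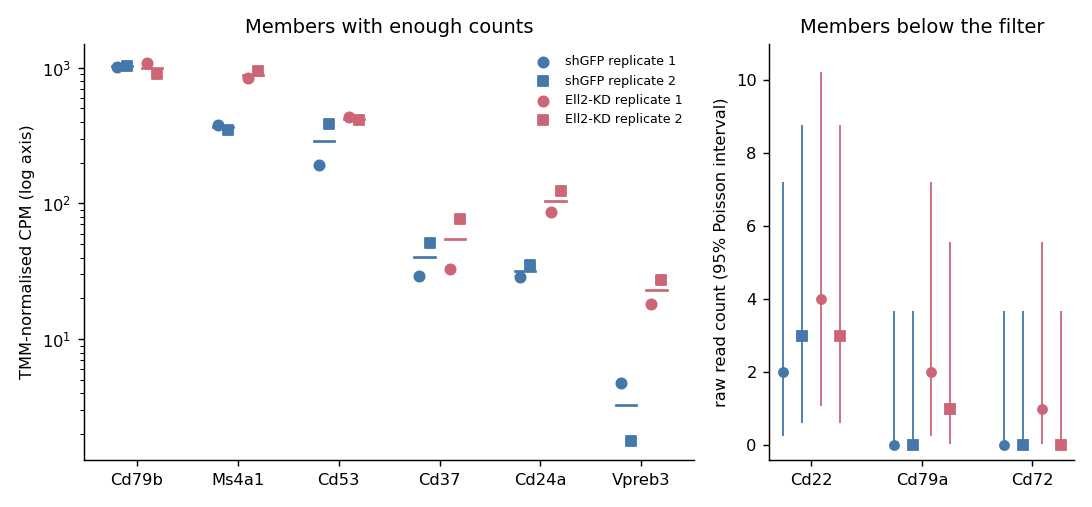
Values of the 9 members in each library. Left, TMM-normalised CPM on a log axis for the 6 members with enough counts to test, with circles for replicate 1, squares for replicate 2 and short lines for group means; right, raw counts with exact Poisson 95% intervals for Cd22, Cd79a and Cd72, none of which exceeds 4 reads. Both Ell2-KD libraries stand above both shGFP libraries for Ms4a1, Cd24a, Vpreb3 and, by a small gap, Cd53.

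Per kilobase of exon the 9 members ran from no reads to some of the highest levels counted in the line. In the controls the order was Cd79b (mean 715 CPM per kilobase), Cd53 (165), Ms4a1 (58.7), Cd24a (12.3), Cd37 (11.4), Vpreb3 (3.83) and Cd22 (0.0823), with Cd79a and Cd72 at 0. Among the 19472 symbols with a length in GENCODE M21, Cd79b stood at the 99.7th percentile, Cd53 at the 98.8th, Ms4a1 at the 95.7th and Vpreb3 at the 64.9th. The values of neighbours in this order did not overlap between the 2 control libraries, except for Cd24a (11.2 and 13.5) and Cd37 (8.36 and 14.4), which exchanged places between the libraries. Cd22, Cd79a and Cd72, each with at most 3 reads there, cannot be ordered at this depth. The lengths come from an annotation of another build than the mm9 of the counts. With the longest transcript in place of all exons the order was the same, though Ms4a1, whose exon union is 6187 bases against 3075 for its longest transcript, then stood at 118 CPM per kilobase. In the depleted cells Cd79b (mean 691), Cd53 (240), Ms4a1 (143) and Cd24a (40.3) kept their order, and Vpreb3 (26.4) stood above Cd37 (15.3), with the nearest libraries at 21.6 and 21.3 CPM per kilobase.

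**Figure D2:**
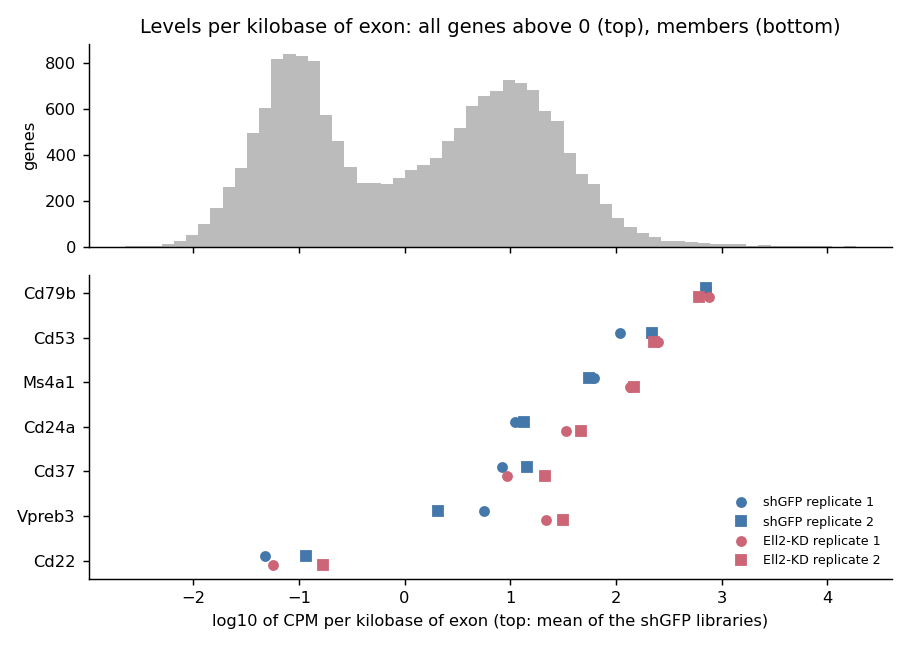
Levels per kilobase of exon, as log10 of CPM per kilobase. The top panel counts all genes above 0 by their mean over the shGFP libraries; the bottom panel shows the 7 members above 0 under shGFP, with shGFP in blue, Ell2-KD in red, circles for replicate 1 and squares for replicate 2. Cd79b, Cd53 and Ms4a1 lie in the upper tail of all genes, and Cd22 lies in the low mode.

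The comparison of Ell2-KD with shGFP asks how these genes differed between cells with the Ell2 hairpin and control cells. Genes were tested where enough libraries reached a count of about 10, which kept 6 of the 9 members. Of all 11027 genes tested, 5 (0.0453%) passed an adjusted p of 0.05, and none of the 6 tested members was among them (edgeR quasi-likelihood test, Benjamini-Hochberg adjustment over all genes). At an unadjusted p under 0.05, 3 of the 6 members were higher and none lower, where 2.57% of all genes were higher. The members at that level were Ms4a1, Cd24a and Vpreb3. Both depleted libraries stood above both controls for 4 of the 6 members, against 17.4% of all genes, and below them for none, against 18.5%. The median log2 change of the 6 was 0.92, beside -0.00 over all genes tested. The members, like the other gene lists, were chosen with earlier results of these data known. Their shares and medians therefore only describe them and do not test the set. In these bulk cultures a change in the share of cells that express a gene and a change in its RNA per cell cannot be told apart.

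Ms4a1, encoding CD20, had 3173 and 1754 reads under shGFP and 11786 and 3214 under Ell2-KD. On the normalised scale it stood at 378 and 348 CPM against 836 and 941 CPM, so both depleted libraries lay above both controls. The fold was 2.45, or 1.29 ± 0.20 (SE) on the log2 scale (edgeR adjusted p = 0.086), with a 95% interval from 0.84 to 1.74. It ranked 7th of all genes by p. Between libraries of the same replicate number the log2 change was 1.14 for number 1 and 1.43 for number 2. Ms4a1 missed the threshold here and passed it in 6 of 9 alternative fits, with adjusted p from 0.00034 to 0.0959 over the 9. Those in which it passed were the fit without a filter (edgeR adjusted p = 0.0182), the stricter filter (0.0476), DESeq2 (0.00653), the replicate number as a block (0.0058), and the fits without Ell2-KD replicate 1 (0.00034) or replicate 2 (0.00304). The size moved little, from 1.21 to 1.37. For scale, the share of all genes called was 0.111% without a filter, 0.0721% with the stricter filter, 0.0544% with DESeq2's size factors, 0.207% with the DESeq2 test, 0.254% with the block, 0.122% and 0.187% without shGFP replicate 1 or 2, and 1.24% and 0.688% without Ell2-KD replicate 1 or 2.

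Cd24a, encoding the heat-stable antigen CD24, had 240 and 177 reads under shGFP and 1218 and 421 under Ell2-KD. It stood at 28.6 and 35.1 CPM against 86.4 and 123 CPM, with no overlap. The fold was 3.29, or 1.72 ± 0.33 (SE) on the log2 scale (edgeR adjusted p = 0.262), with a 95% interval from 0.99 to 2.45. Between libraries of the same replicate number the log2 change was 1.59 for number 1 and 1.80 for number 2. Cd24a passed in 4 of 9 alternatives: without a filter (edgeR adjusted p = 0.0182), with DESeq2 (0.0045), with the replicate block (0.033) and without Ell2-KD replicate 1 (0.00109). Over the 9 the adjusted p reached 0.307. A stretch of 218 bases of Cd24a is 96.8% identical to a transcript of Gm6212, so part of its count is uncertain.

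Vpreb3 was the least abundant member tested and had the largest change. It had 40 and 9 reads under shGFP and 258 and 94 under Ell2-KD, or 4.77 and 1.79 against 18.3 and 27.5 CPM. Its groups did not overlap, and shGFP replicate 2, with 9 reads, set the low end. The fold was 6.80, or 2.76 ± 0.70 (SE) on the log2 scale (edgeR adjusted p = 0.489), with a 95% interval from 1.23 to 4.30. Between libraries of the same replicate number the log2 change was 1.88 for number 1 and 3.76 for number 2. Vpreb3 passed with DESeq2 (adjusted p = 0.0451) and without Ell2-KD replicate 1 (edgeR adjusted p = 0.00825) and in none of the other 7 alternatives, whose adjusted p reached 0.798. Its log2 change was 3.67 without shGFP replicate 1 and 2.25 without shGFP replicate 2. Its relatives of the surrogate light chain stayed near 0: Vpreb1, Vpreb2 and Igll1, looked up as partners of the family, had at most 2 reads in any library.

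**Figure D3:**
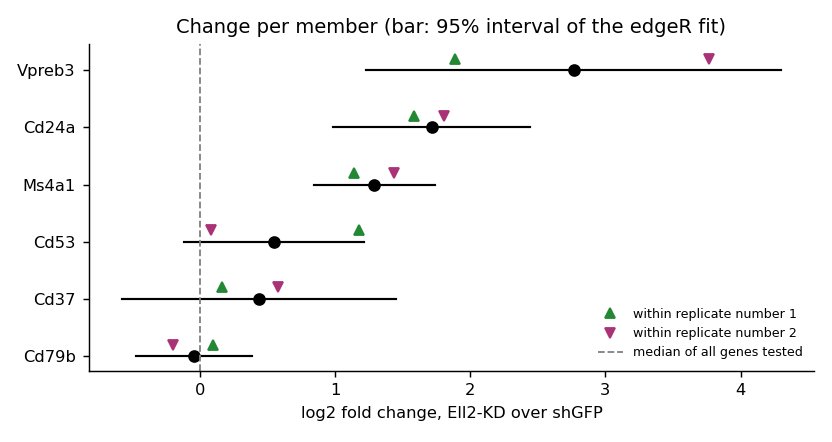
Change of each tested member, as the log2 fold change of Ell2-KD over shGFP on the horizontal axis. Black points and bars give the edgeR estimate and its 95% interval, triangles the difference of log2 CPM within each replicate number, and the dashed line the median of all genes tested. The intervals of Vpreb3, Cd24a and Ms4a1 lie above 0 before adjustment over all genes, and those of Cd53, Cd37 and Cd79b include 0.

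For each of the 2 tetraspanins, the libraries of at least 1 group lay further apart than the group means did. Cd53, which organises membrane receptors of leukocytes, stood at 191 and 385 CPM under shGFP and at 431 and 408 CPM under Ell2-KD. The groups did not overlap, but shGFP replicate 2 lay close to the depleted libraries and shGFP replicate 1 alone was low. The log2 change was 0.54 ± 0.30 (SE; edgeR adjusted p = 0.891), with 1.17 between the libraries numbered 1 and 0.08 between those numbered 2. It was 0.14 without shGFP replicate 1 and 1.13 without shGFP replicate 2, so 1 control library decided its size. Cd37, a tetraspanin of mature B cells, stood at 29.2 and 51.2 CPM under shGFP and at 32.7 and 76.7 CPM under Ell2-KD. Both libraries numbered 2 were above both libraries numbered 1, and the groups overlapped. The log2 change was 0.44 ± 0.46 (SE; edgeR adjusted p = 0.978), with a 95% interval from -0.58 to 1.45, and was -0.28 without Ell2-KD replicate 2. Exons of Cd37 overlap Tead2 on the opposite strand, which had at most 4 reads in any library. The libraries numbered 2 were also the shallower of each group, and the part of depth in these values was not tested.

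**Figure D4:**
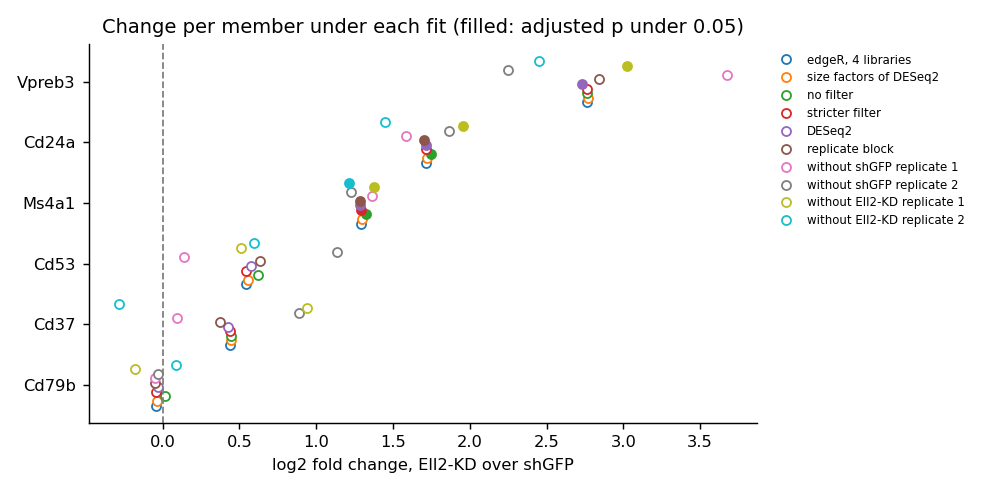
Log2 fold change of Ell2-KD over shGFP for each tested member under each fit, 1 colour per fit, with filled circles where the adjusted p over all genes was under 0.05. The points of Ms4a1 lie between 1.21 and 1.37, those of Vpreb3 between 2.25 and 3.67, and those of Cd37 on both sides of 0.

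Summed over the 9 members, counts took 1658 and 1839 CPM (relative to the raw library total) under shGFP and 2520 and 2424 CPM under Ell2-KD. Cd79b gave 61.6% and 55.7% of these counts under shGFP and 43.5% and 36.4% under Ell2-KD. Ms4a1 gave 23.0% and 18.8% under shGFP and 33.6% and 37.9% under Ell2-KD, where in Ell2-KD replicate 2 it passed Cd79b in raw counts. No test was run on these sums.

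No gene of the related lists below passed the test in either direction. Of 26 genes of antigen receptor signalling counted, 23 were tested. Of those tested, 15 lay above 0 and 8 below, with a median log2 change of 0.23. Both depleted libraries stood above both controls for 9 of the 23, against 17.4% of all genes, and below them for 2, against 18.5%. Blnk, an adaptor phosphorylated by Syk below the receptor, was the most abundant of these genes, at 356 and 292 CPM under shGFP and 340 and 263 CPM under Ell2-KD, with overlapping groups. Plcg2, the phospholipase that Blnk recruits, and Vav1, a guanine nucleotide exchange factor, had log2 changes of 0.35 ± 0.26 (SE) and 0.61 ± 0.25. Bcl10, an adaptor that links the receptor to NF-kappaB, had 1.08 ± 0.34, and Pik3ap1, an adaptor of PI3 kinase, -1.09 ± 0.41. Reads of this signalling chain were thus present in libraries in which Cd79a had at most 2.

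Of 17 coreceptor and inhibitory genes, 11 were tested. Of those tested, 6 lay above 0 and 5 below, with a median log2 change of 0.03. Both depleted libraries stood above both controls for 2 of the 11, against 17.4% of all genes, and below them for 4, against 18.5%. Cd81, a widely expressed tetraspanin, stood at 348 and 273 CPM under shGFP and at 391 and 242 CPM under Ell2-KD. Ptpn6, the SHP-1 phosphatase that CD22 and CD72 recruit, had 89 and 41 reads under shGFP and 28 and 5 under Ell2-KD (log2 change -2.41 ± 0.97 SE; edgeR adjusted p = 0.810). Ptpn22, a phosphatase of antigen receptor signalling, had 63 and 26 reads against 11 and 2 (adjusted p = 0.807). Inpp5d, the lipid phosphatase SHIP-1, had a log2 change of 0.53 ± 0.26, and Ptpn11, the phosphatase SHP-2, and Csk, a kinase that restrains Src-family kinases, had 0.33 ± 0.25 and 0.13 ± 0.25.

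Relatives of single members are given by family. Of 13 genes of the Ms4a family besides Ms4a1, none had enough reads to be tested and 11 never exceeded 3 reads, against at least 1754 for Ms4a1. Of 12 tested tetraspanins related to Cd37 and Cd53, 11 lay below 0 (median log2 change -0.24), where 5525 of all 11027 genes did. The 1 above 0 was Cd81 (0.03), which is also counted among the coreceptor genes. The groups did not overlap for 2 of the 12, both lower, where 18.5% of all genes were lower without overlap. Of the 12, 1 was lower at an unadjusted p under 0.05, as were 359 of all 11027 genes. Tspan15 had -0.93 ± 0.40 (SE), Tspan4 -0.80 ± 0.58 and Cd82 -1.22 ± 1.10. Of 11 tested B cell surface genes, 3 lay above 0 and 8 below (median log2 change -0.19). Among them Cd180, a Toll-like receptor relative of B cells, stood at 16.2 and 21.4 CPM against 3.83 and 6.15 CPM, Cxcr4, a chemokine receptor, at 298 and 454 against 257 and 261 CPM, and Cd38, an ectoenzyme, at 7.39 and 13.9 against 23.6 and 17.3 CPM. Of 13 precursor B cell genes, 3 were tested (Kit, Cd93 and Flt3), with log2 changes of -1.90 ± 1.48, -0.59 ± 1.83 and 0.07 ± 0.48. Among 7 tested partners of CD24 and CD22, Cmah, which makes the sialic acid form that mouse CD22 prefers, stood at 560 and 538 CPM against 274 and 280 CPM, with no overlap (log2 change -0.99 ± 0.21 SE; edgeR adjusted p = 0.293). St6gal1, the sialyltransferase that makes CD22 ligands, had a log2 change of 0.26 ± 0.23, and Hmgb1, a nuclear protein that CD24 can bind, -0.52 ± 0.45.

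The genes whose profile over the 4 libraries lay nearest to that of Ms4a1 were Gm12657, Slc25a37 (a mitochondrial iron importer) and Rpap3 (a cochaperone of RNA polymerase assembly). Their Euclidean distances in centred log2 CPM were 0.0645, 0.156 and 0.198, among 7016 genes with a mean of at least 20 CPM. Gm12657, annotated as a processed pseudogene, stood at 87.0 and 78.0 CPM under shGFP and at 187 and 222 CPM under Ell2-KD. For Cd24a the nearest were Ormdl1 (a regulator of sphingolipid synthesis), Tsc22d1 (a transcription regulator) and Sec11a (a signal peptidase subunit), at 0.246, 0.279 and 0.291. Of these, Tsc22d1 passed the test (edgeR adjusted p = 0.017), with 200 and 226 CPM against 717 and 838 CPM. With 4 libraries, such likeness rests mostly on the difference between the groups.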

How the data were processed

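Per the labels' protocols, SOLiD RNA-Seq was run on total RNA of 4 MPC11 cultures. Each library came as a table of raw read counts by gene symbol, as the authors deposited it. The submitters' processing notes list SAMtools 0.1.11, HTSeq 0.5.3, DESeq 1.4.1 and the build mm9; the aligner, annotation and strand setting were not stated there. No entry lacked a gene name.

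The members and all gene lists were chosen with earlier results of these data known. The test was edgeR 4.0.16 under R 4.3.3: filterByExpr (minimum count 10, minimum total 15; 11027 genes kept), TMM, and a robust, two-sided quasi-likelihood test of Ell2-KD against shGFP over 4 libraries with group as the only term, with Benjamini-Hochberg adjustment over all genes (threshold 0.05). An SE is the log2 change divided by the square root of F. The common biological coefficient of variation was 0.43. Library totals of 3496471 to 13914488 counts limit precision for low genes. Correlations of log2 CPM (prior count 2) between libraries ran from 0.871 to 0.92, so no library was a copy of another.

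Alternatives were DESeq2 1.42.0 size factors, no filter (at least 1 count), a stricter filter (1 CPM in every library), the DESeq2 test, the replicate number as a block and each library left out. In simulated counts for this comparison over 11027 genes a 2-fold change was called in 4.15% of cases, a 4-fold change in 54.7% and an 8-fold change in 73.7%.

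Genes named were every member, Ell2, the 3 of smallest p in each list (markers of other cell types only by their sums, Itga2b and Epcam excepted), the 3 most abundant of the signalling and coreceptor lists, and the 3 nearest in profile to Ms4a1 and Cd24a. Vpreb1, Vpreb2, Igll1, Sdc1, Igj, Xbp1, Slamf7, Irf4, Prdm1 and the markers at 0 were added after their values were seen. The planned log2 ratio of Cd79a to Cd79b could not be formed with counts of 0, so the share of Cd79a was tested. Lengths and overlaps came from GENCODE M21 (GRCm38) and near-identical stretches (at least 95% over 50 bases) from BLAST 2.17.0 on its transcripts. Intervals are at 95%.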

Additional observations from a re-analysis of the deposited data

How the results depend on the processing

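The number of genes past the threshold, 5, was 6 with DESeq2's size factors and 7 with the stricter filter, but 22 without a filter, 34 with DESeq2's test and 28 with the replicate block, and 14 to 142 with 1 library left out (14 without shGFP replicate 1, 22 without shGFP replicate 2, 142 without Ell2-KD replicate 1 and 82 without Ell2-KD replicate 2). Of the members, 0 passed with all libraries, 2 passed without a filter, 1 with the stricter filter, 3 with DESeq2, 2 with the replicate block, and 0 to 3 with 1 library left out; all of them were higher in Ell2-KD. Without Ell2-KD replicate 1 there were 3 and without Ell2-KD replicate 2 there was 1. The shares of all genes called in these fits were 0.111% without a filter, 0.0721% with the stricter filter, 0.207% with DESeq2, 0.254% with the block, 1.24% without Ell2-KD replicate 1 and 0.688% without Ell2-KD replicate 2. In a fit that leaves a group with 1 library, that library is assumed to vary like the other group. The cause of these moves was not tested. Without a filter all 9 members were tested, and with DESeq2 7, against 6 in the main fit.

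The sign of the log2 change turned for Cd79b without a filter (0.017). With 1 library left out Cd79b ranged from -0.18 (without Ell2-KD replicate 1) to 0.088 (without Ell2-KD replicate 2), and Cd37 from -0.28 (without Ell2-KD replicate 2) to 0.94 (without Ell2-KD replicate 1). Ms4a1, Cd24a, Vpreb3 and Cd53 were positive in all 9 alternatives. The share of Cd79a in both chains' reads was 0.0228 percentage points higher in Ell2-KD, and 0.0131 to 0.0324 with 1 library left out, an alternative added after seeing the data. The labels do not say that replicate numbers pair the cultures. Libraries with the same number deviated from their group means together (correlation over genes 0.31), but 2 pairs are too few to settle a pairing, and the replicate block is given as an alternative only.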
